A study of Mus musculus with 12 samples.

Results

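The share of cytosine modification that is 5-hydroxymethylcytosine (5hmC) was described in the retina of control mice at postnatal day 21 (P21). Members were autosomal regions of the whole-genome bisulfite sequencing (WGBS) list that regions of the bACE-seq list, an assay that couples bisulfite with an APOBEC deaminase, covered over at least 50% of their bases. They numbered 128511 of 190763 autosomal WGBS regions (67.4%), and the list held 193836 regions with the sex chromosomes included. For each member, the 5hmC share was the bACE-seq level of the covering regions, averaged with their CpG numbers as weights, divided by the WGBS level.

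The study profiled genomic DNA of whole retinas from Cre- and Tet tcKO mice, with 3 libraries per group and assay. Both lists held regions that differed between these groups, each with 1 pooled mean level per group. All levels described here are those of the Cre- group unless stated. The Cre- retinas were labeled wild type on the C57 BL/6J background and came from age-matched animals of Cre- breeders. Whether these controls also carried the floxed Tet alleles was not given in the sources used here. In Tet tcKO mice, floxed alleles of Tet1, Tet2 and Tet3 were recombined by Cre fused to GFP under the Chx10 promoter, which is active in retinal progenitors. Because there was 1 mean per group, no spread between replicates, coverage or counting interval could be given for any value, and no test was possible. All comparisons below are therefore descriptions over regions or genes, which are not replicates.

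TET enzymes oxidize 5-methylcytosine (5mC) to 5hmC, which can be processed further to unmodified cytosine, and 5hmC is abundant in the DNA of neurons. Bisulfite leaves both marks unconverted, so WGBS reads 5mC and 5hmC as one level. In bACE-seq, APOBEC3A deaminates 5mC after bisulfite has turned 5hmC into a protected adduct, so that 5hmC alone remains as cytosine. Rod photoreceptors are the most numerous cells of the mouse retina. A level in whole tissue averages all cells, and more cells carrying 5hmC cannot be told apart from more 5hmC per cell.

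Stretches of the mm10 plus strand show what 5 of the members looked like, each spanning 200 bases around the midpoint of a member, with CpGs in capitals. The stretch of the member with the highest share among those with at least 30 CpGs lies in an intron of Myo7a at chr7:98111335-98111534 and holds 14 CpGs:
Myo7a intron: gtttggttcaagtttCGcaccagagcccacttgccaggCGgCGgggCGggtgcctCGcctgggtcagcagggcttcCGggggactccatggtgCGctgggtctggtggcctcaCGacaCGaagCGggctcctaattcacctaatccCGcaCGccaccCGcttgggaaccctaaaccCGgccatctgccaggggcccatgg
The stretch of the member with the lowest share, under the same CpG minimum, lies in an intron of Acnat1 at chr4:49466956-49467155 and holds 16 CpGs:
Acnat1 intron: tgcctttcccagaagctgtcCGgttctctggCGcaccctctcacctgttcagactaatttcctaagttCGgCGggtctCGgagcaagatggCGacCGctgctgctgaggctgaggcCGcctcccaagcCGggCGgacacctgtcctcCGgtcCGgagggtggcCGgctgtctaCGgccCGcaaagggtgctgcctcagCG
The stretch of the member with the most CpGs lies within Ctbp2 at chr7:133007927-133008126 and holds 1 CpG:
Ctbp2: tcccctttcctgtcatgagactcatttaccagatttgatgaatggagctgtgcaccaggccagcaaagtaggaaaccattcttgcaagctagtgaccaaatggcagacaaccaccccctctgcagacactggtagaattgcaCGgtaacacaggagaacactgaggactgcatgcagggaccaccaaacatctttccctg
The stretch next to the start site of Slc38a3, downstream of Gnat1, lies at chr9:107669254-107669453 and holds 3 CpGs:
Slc38a3 and Gnat1: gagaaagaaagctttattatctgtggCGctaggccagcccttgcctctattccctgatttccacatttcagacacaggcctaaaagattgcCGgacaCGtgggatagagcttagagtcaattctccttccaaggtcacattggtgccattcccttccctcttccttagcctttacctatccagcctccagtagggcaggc
The stretch next to the start site of Nrl lies at chr14:55524339-55524538 and holds 1 CpG:
Nrl: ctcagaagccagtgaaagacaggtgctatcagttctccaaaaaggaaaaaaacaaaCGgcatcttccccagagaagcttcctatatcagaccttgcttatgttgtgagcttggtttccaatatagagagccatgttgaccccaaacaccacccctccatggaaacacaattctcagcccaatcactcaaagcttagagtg
The Myo7a and Acnat1 stretches come from the ends of the range of shares among members with at least 30 CpGs. They hold more CpGs than the other 3, which come from longer members with fewer CpGs per length.

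Over all members, the CpG-weighted WGBS level was 60.7% and the 5hmC level was 19.2%, which gave a 5hmC share of 31.6%. The remaining 41.5 percentage points are the difference of the levels, which stands for 5mC. Members had to lie in both lists of regions that differed between the groups. The values therefore describe these regions and not the whole genome of the retina. The paper's own estimate of 5hmC over the CpGs of P21 retina was lower than the 19.2% of the members. How far the selection moved the share was not tested. The members held 1345236 CpGs in 63.2 Mb, with a median of 8 CpGs and 384 bp. The median share over members was 29.3%, and the middle 80% lay between 16.7% and 51.1%. A share above 50% was found in 13980 members (10.9%), and a share under 20% in 24198 (18.8%). The 5hmC level itself spanned a narrower range than the WGBS level, with a 10th percentile of 11.4%, a median of 18.3% and a 90th percentile of 27.9%. The same percentiles of the WGBS level were 39.9%, 67.2% and 83.7%.

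Total modification and 5hmC were nearly unrelated across the members (Spearman's rho 0.0209 over 128511 regions, whose values come from the same libraries). Regions entered either list only where the groups differed, which can limit the range of both levels. In addition, a median of 27.3% of the bases of the covering bACE-seq regions lay inside the member. The rho therefore holds for the members only, and the part of these limits in it was not tested. The 5hmC level was 20.3% in both the members with 50 to 60% and those with 60 to 70% total modification. It was lower at both ends, at 11.3% where total modification was 10 to 20% and 14.4% where it was 90 to 100%. The share, which has the WGBS level as its divisor, therefore fell steadily from 72.4% to 15.7% between these same ranges.

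**Figure D1:**
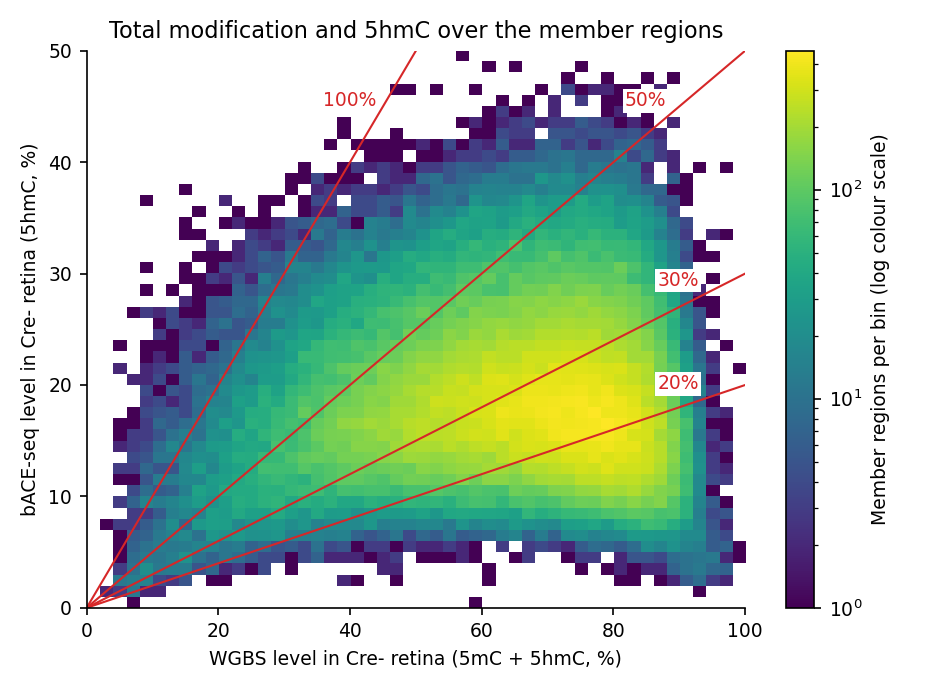
Each colored bin counts the members with a given WGBS level (x axis, percent) and 5hmC level (y axis, percent, shown to 50%), and red lines mark shares of 20, 30, 50 and 100%. The cloud is wide along the x axis and narrow along the y axis, where the middle 80% of members lay between 11.4% and 27.9%.

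A share above 100% has no chemical meaning, and 780 members (0.607%) had one. Their median WGBS level was 17.5%, against 67.3% in the other members. The regions of the lists also did not share their boundaries. Only 15.1% of the bases of the covering bACE-seq regions lay inside a member with a share above 100% (median), against 27.4% in the other members. Where at least 50% of the bases of the covering bACE-seq regions lay inside the WGBS region, a condition called reciprocal cover below, the share of members with a total level under 10% was 44.3%, against 95.3% without it. At 60 to 70% total modification the values were 29.5% and 31.2%. With matched boundaries the share also declined with total modification from the 10 to 20% range upward. The share has the WGBS level as its divisor, so it falls wherever the bACE-seq level rises less than in proportion to the WGBS level. The values with matched boundaries use the same ratio and are no separate evidence for the decline.

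**Figure D2:**
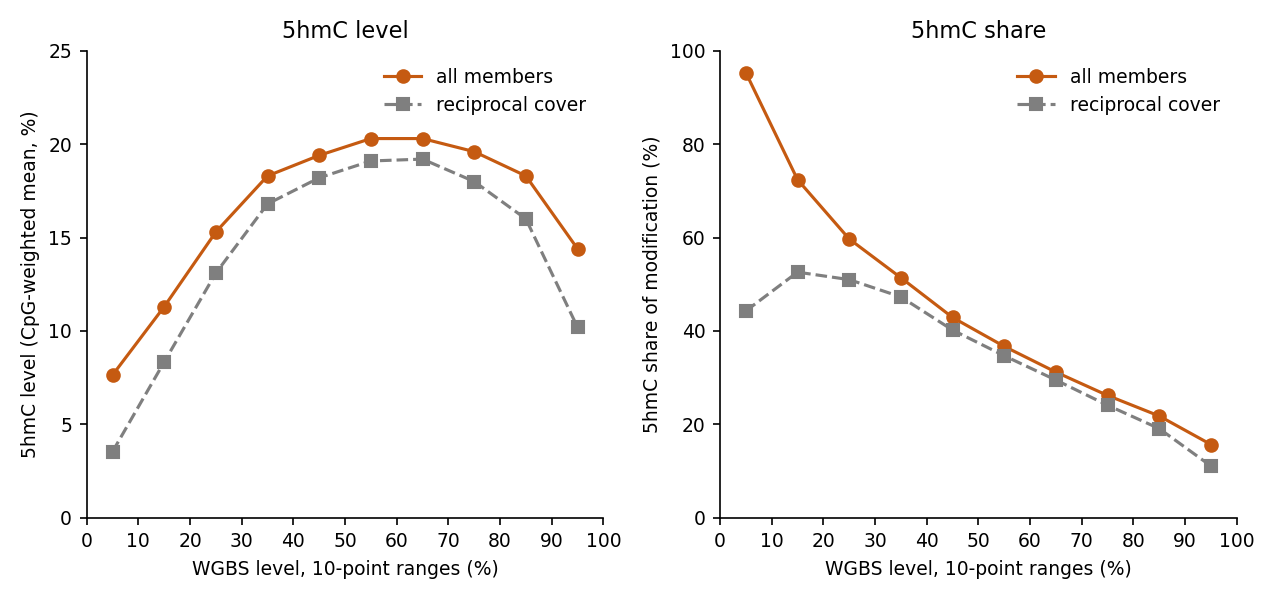
The left panel shows the CpG-weighted 5hmC level and the right panel the 5hmC share (both in percent) in 10-point ranges of the WGBS level, for all members (circles) and for members with reciprocal cover (squares). With both sets 5hmC was highest between 50 and 70% total modification, and the sets differ most in share below 20%, where all members reached 95.3% and those with reciprocal cover 44.3%.

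Sparse CpGs carried a larger share of 5hmC than dense ones. In the decile of members with the fewest CpGs per length (median 1.11 per 100 bp), the 5hmC level was 24.2% and the share 41.8%. In the densest decile (median 5.31 per 100 bp), the 5hmC level was 14.3% and the share 23.5%, a difference from the sparsest decile of -18.2 points. Total modification was similar in the sparsest and densest deciles, at 57.9% and 60.5%. The same order was seen at equal total modification: among members with 60 to 70%, the share was 36.3% in the sparsest of 4 density groups and 26.9% in the densest. Between 20 and 30% it was 75.4% and 45.8%, and between 80 and 90% it was 25.1% and 19.3%. Longer members also had higher shares (23.3% in the shortest decile, with a median of 104 bp, and 41.8% in the longest, with 1237 bp), and length moves with density, so these properties cannot be told apart here.

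Members near start sites had the highest share of the 3 genomic classes. Midpoints within 2 kb of a start site were classed as promoter, those elsewhere in genes as gene body and the rest as intergenic. The 12690 promoter members had a share of 36.0%, the 79144 gene body members 32.4% and the 36677 intergenic members 28.0%. The classes reached these shares from different levels. Promoter members had the lowest total level (50.1%), whereas gene bodies had a high total level (62.8%) and the most 5hmC (20.3%). Intergenic members had a total level of 60.3% and 16.9% 5hmC. At equal total modification the order of promoters and gene bodies turned: between 60 and 70% the share was 30.6% at promoters, 32.9% in gene bodies and 27.3% in intergenic members.

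Within genes, introns and coding exons stood apart. The 71449 intronic members had a share of 33.2% and a 5hmC level of 20.8%, and the 4520 members centered on coding exons 25.1% and 16.0%. Their total levels were close, at 62.6% and 63.8%. Members on untranslated exons lay between them, with a share of 28.7%. Members with repeat sequence over at least 50% of their bases had the highest total level, 70.7%, at a share of 27.3%. By chromosome the share ranged only from 30.4% to 33.0%.

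Along genes of at least 10 kb, the share declined from the start to the end. It was 38.4% in the first decile of gene length, 33.4% in the fifth and 28.2% in the last, and each decile lay below the one before it. Beyond the first decile the total level stayed between 61.7% and 63.7%, so the decline followed the 5hmC level, which was 22.4% in the second decile and 18.7% in the ninth. Around start sites the profile had a dip. The share was 36.9% between 1 kb and 500 bp upstream, 32.5% in the 500 bp downstream of the start site and 38.4% in the next 500 bp. The 5hmC level was lowest in that dip, at 15.8%, and total modification was lowest in the window after it, at 45.0%.

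**Figure D3:**
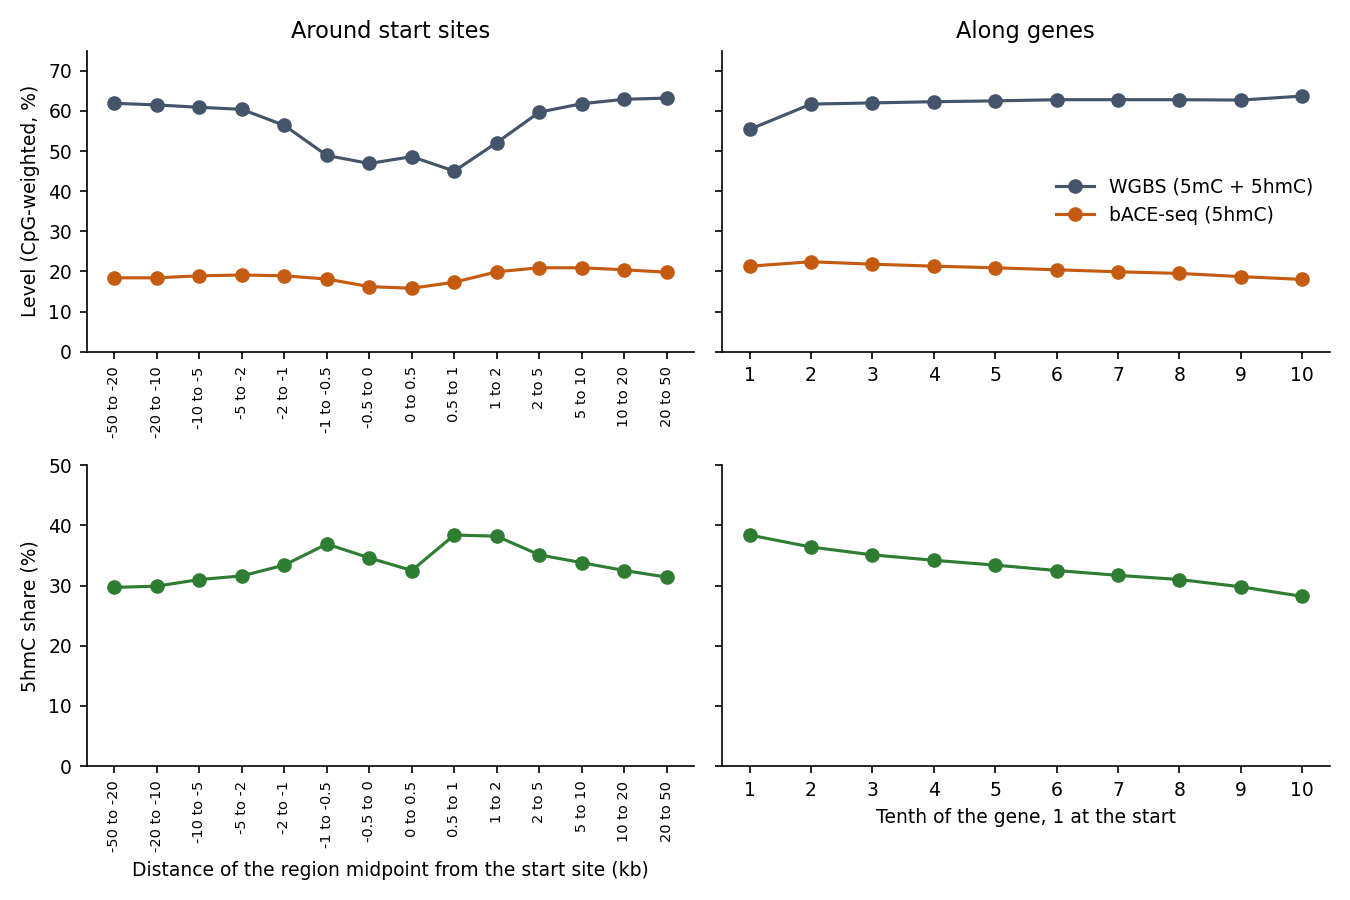
The upper panels show the CpG-weighted WGBS and 5hmC levels and the lower panels the 5hmC share (all in percent), by distance of the member's midpoint from the nearest start site (left, kb) and by decile of the gene's length (right). Along genes the share falls from 38.4% to 28.2% while the WGBS level is nearly flat after the first decile, and around start sites it dips to 32.5% between peaks of 36.9% and 38.4%.

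To ask whether retinal gene groups differed in their share, members within each gene and 5 kb on either side were pooled with CpG weights. Of 30192 autosomal genes, 21060 had a member, with a median share of 29.8% and a middle 50% between 23.5% and 38.0%. The 16 gene lists held 4 to 14 genes with a member. The genes named first in each list are those with the most member CpGs. Genes named for the highest or lowest share of a list were picked out after their values were seen.

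Rod genes had a high share with a high 5hmC level. Of 15 genes of rod phototransduction and the outer segment, 14 had a member, and all 14 lay above the median of all genes and 10 above the upper quartile. Their median share was 44.7%, with a median 5hmC level of 26.5% against 17.7% over all genes and a median total level of 62.3% against 62.1%. Gnb1, a beta subunit of transducin, had 12 members with 57.8% total modification, 30.3% 5hmC and a share of 52.5%. Cnga1, a subunit of the rod cyclic nucleotide-gated channel, had 41.8%, Pde6a, a catalytic subunit of the rod phosphodiesterase, 37.9% and Guca1b, an activator of guanylate cyclase, 35.0%, the lowest of the list. The highest share of the list was that of Gnat1, the alpha subunit of rod transducin, with 61.1% from 2 members. Of its 65 member CpGs, however, 50 lie in a member over the start site of the neighboring gene Slc38a3.

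Regulators of photoreceptor fate had the highest median share of the 16 lists, 49.5% over 10 of 11 genes, 9 of them above the upper quartile of all genes. Where cover by a single base was enough, the rod median was higher, at 57.0% against 51.6% for the regulators. The median 5hmC level of the regulators was 26.4%, close to that of rod genes, and their median total level was lower, at 53.3%. Casz1, a zinc finger factor of photoreceptors, was the best covered gene, with 53 members and 1925 CpGs at 47.6% total modification, 25.3% 5hmC and a share of 53.1%. Rorb, a nuclear receptor needed for rods, had 30.4% 5hmC and a share of 51.2%. Prdm1, which represses bipolar fate in photoreceptor precursors, had a share of 48.3%, and Esrrb, a nuclear receptor of rods, 44.3%. Crx had the highest share (58.9% over 18 CpGs) with 39.6% 5hmC. Otx2, which acts upstream of Crx and is also expressed in bipolar cells, had the lowest share of the list, 32.2%, with 10.7% 5hmC.

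The cone list had a lower median than the rod list. Its median share was 32.5% over 11 of 12 genes, 2 of them above the upper quartile, and its median 5hmC level was 17.8%. Thrb, the thyroid hormone receptor of cones, had a share of 35.3%, Guca1a 37.6%, Gnat2, the alpha subunit of cone transducin, 32.5% and Pde6c, the cone phosphodiesterase, 27.3%. Guca1a adjoins Guca1b of the rod list, and with the flanks they share 4 members, of 5 at Guca1a and 9 at Guca1b. The rod median was 12.2 points above the cone median. With reciprocal cover, which left 6 rod and 7 cone genes, the cone median was 39.5%, against 45.8% for rod genes and 30.3% over all genes. The difference was then 6.24 points, and it was 24.5 points where cover by a single base was enough. Its size therefore depends on how the lists are joined.

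Among genes of inner retinal neurons, the median was 28.0% at bipolar genes, 25.3% at amacrine genes, 27.5% at ganglion cell genes and 30.6% at the 4 horizontal cell genes with a member, against 29.8% over all genes. With reciprocal cover the bipolar median was 32.7%, above the 30.3% of all genes. Prkca, which marks rod bipolar cells, had 117 members and a share of 33.6%, the highest among bipolar genes, and Trpm1, the channel of ON bipolar cells, 23.5%. Among amacrine genes Slc6a9, the glycine transporter, had 41.3%, the highest, and Pax6 25.2%. At ganglion cell genes Ebf3 had 31.0%, Ebf1 27.5% and Rbpms 22.9%. Prox1, the best covered horizontal cell gene, had 29.9%. Müller glia genes had a median of 32.9%, with 8 of 12 genes above the median of all genes. The share was 28.3% at Slc1a3, the glutamate transporter of these cells, 34.6% at Dkk3, 31.3% at Glul, which encodes glutamine synthetase, and 29.9% at Kcnj10, a potassium channel. The highest was 56.5% at Vim, from a single member.

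Microglia genes had the lowest median share of the 16 lists, 20.4% over 8 of 9 genes, with a 5hmC level of 12.8% and a total level of 64.1%. Cx3cr1, the fractalkine receptor, had 17 members with 72.5% total modification, 13.1% 5hmC and a share at percentile 8.81 of all genes. Csf1r had 22.9%, Tmem119 17.2% and P2ry12, with 8 CpGs, 10.4%. Ptprc was higher, at 38.6% from a single member with a total level of 23.2%. The position of this list depended on which regions entered. Its median was 31.4% where only regions of both lists with at least 10 CpGs entered, against 31.7% over all genes. Where the groups had to differ by at least 0.1 in both lists, the medians were 30.4% and 34.3%. The CpG minimum also removes genes with small members only, such as P2ry12, and what moved the median was not tested. Endothelial genes had a median of 26.9%, with 23.4% at Flt1 and 26.9% at Vwf, but their median lay above that of all genes with reciprocal cover. Genes of liver, muscle and other tissues had 26.3%.

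Glycolysis genes had a median of 42.0%, with 6 of 10 above the upper quartile of all genes. Slc2a1, the glucose transporter, had a share of 42.3%, Ldha, lactate dehydrogenase A, 57.0% with 29.5% 5hmC, Pkm 48.0% and Pfkp 32.3%. Genes of respiratory complex I had a median of 39.6% and a range from 17.0% to 87.7%. Ndufs3 had the highest value, but 161 of its 181 CpGs lie in a member at the neighboring gene C1qtnf4. Ribbon synapse genes had a median of 37.4%. Ctbp2, which encodes the ribbon protein RIBEYE, had 54 members and a share of 52.6%, Cplx4, a complexin of photoreceptor terminals, 63.0%, Cacna2d4, a calcium channel subunit, 39.7%, and Bsn, which encodes bassoon, 25.7%. Progenitor genes had a median of 36.8%, with total and 5hmC levels of 45.1% and 16.0%, but reciprocal cover, which left 6 genes, put their median at 20.7%, below the 30.3% of all genes. Lhx2 had 29.0% and Ccnd1 38.3%.

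The genes that write, read and erase DNA methylation had a median share of 36.5%. Tet3 stood highest, with 26 members, 526 CpGs, 58.1% total modification, 29.9% 5hmC and a share of 51.4%, followed by Tdg, the glycosylase that excises oxidized 5mC (46.1%), and Dnmt3a, a de novo methyltransferase (44.2%). Tet1 had 38.9%, Tet2 36.5% and Mbd2, a methyl-CpG binding protein, 34.0%. Uhrf1, which recruits the maintenance methyltransferase in dividing cells, had the lowest share, 15.2%, at 76.5% total modification.

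**Figure D4:**
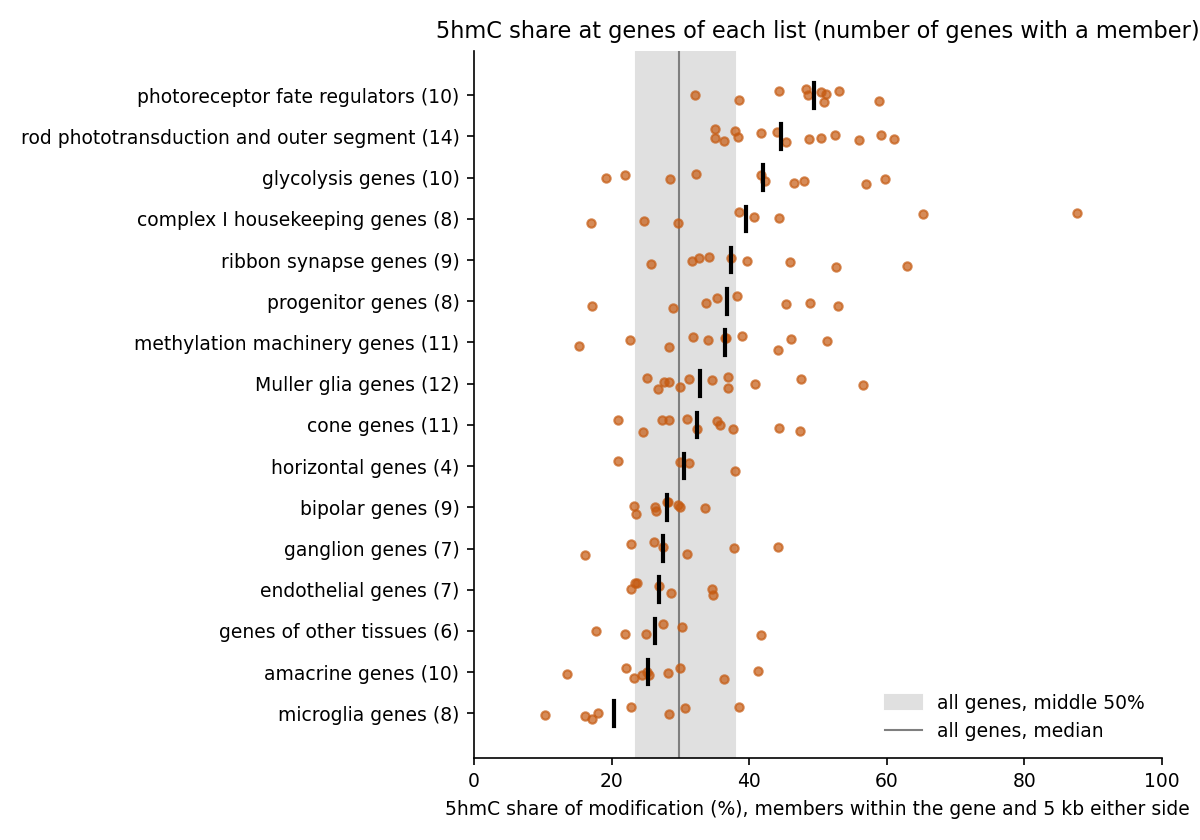
Each point is a gene's 5hmC share (x axis, percent, members within the gene and 5 kb either side), black bars are list medians, and the gray band and line are the middle 50% and the median of all 21060 genes. Photoreceptor fate regulators (49.5%) and rod genes (44.7%) have the highest medians and microglia genes (20.4%) the lowest.

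Maps of Nrl, which commits photoreceptor precursors to the rod fate, and Gnat1 show how the levels lay along a gene. A member of 6356 bp with 94 CpGs spanned the start site of Nrl (chr14:55521261-55527616) with 35.7% total modification. Its 4 bACE-seq regions had 25.6% and 28.8% on the upstream side of the start site and 9.59% and 12.7% downstream of it. Their weighted mean was 19.0%, a share of 53.2%. A member past the 3′ end of Nrl, at the neighboring gene Cpne6, had 56.3% total modification and a share of 45.2%. At Gnat1, a member over the 3′ untranslated exon (chr9:107673905-107675401, 15 CpGs) had 53.4% total modification, 31.9% 5hmC and a share of 59.7%. Its bACE-seq region reached past the 3′ end of the gene, with 35.5% of its bases inside the member. The other member lay over the start site of Slc38a3, with 28.7%, 17.8% and 62.0% in the same order. The WGBS region over the start site of Gnat1 itself (145 CpGs, 32.4%) was covered over less than 50% of its bases and is no member. Its partial cover consisted of 1 region with 23.5% that reached upstream and 4 short regions with 8.75% to 14.8%.

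**Figure D5:**
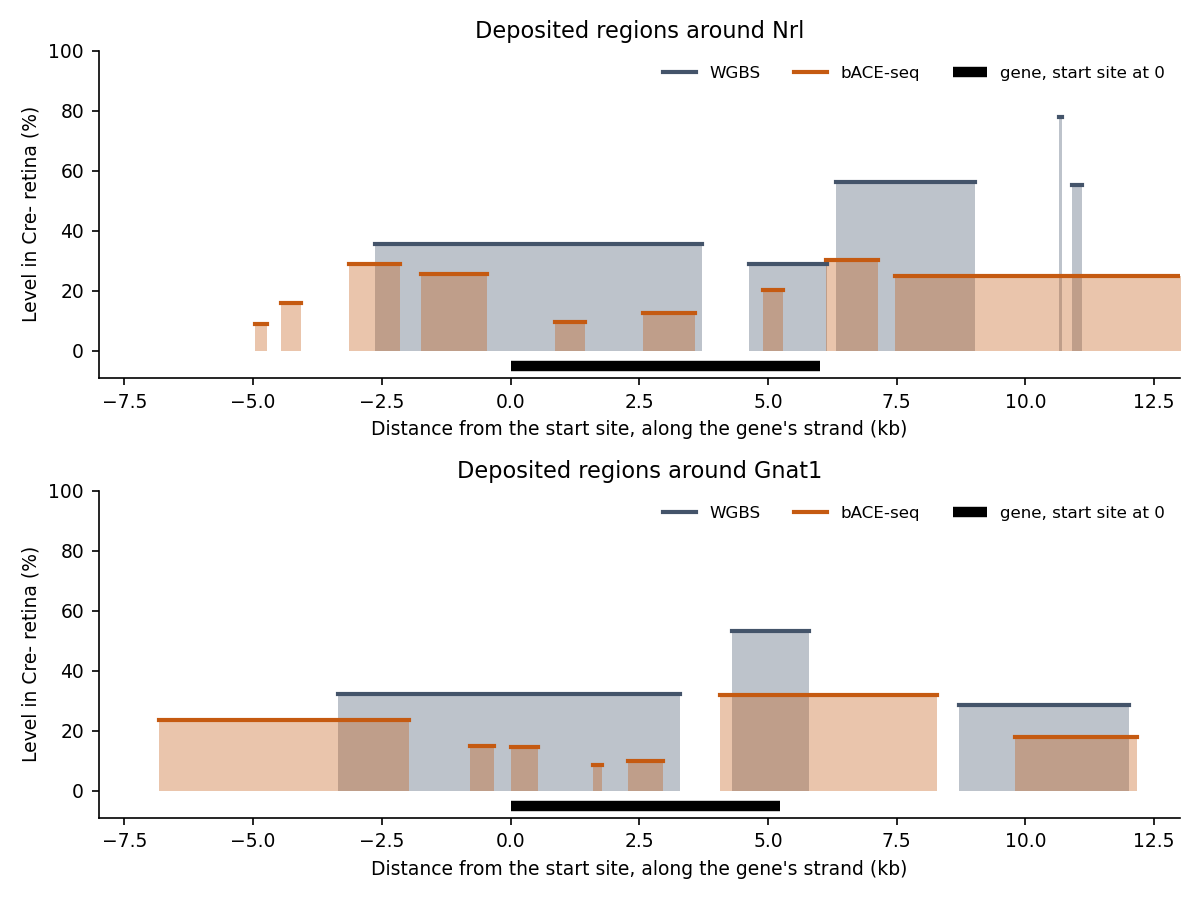
Horizontal lines with shading show the deposited WGBS (gray) and bACE-seq (orange) regions at their Cre- level (y axis, percent) by distance from the start site of Nrl and Gnat1 along the gene's strand (x axis, kb), and the black bar is the gene. The first bACE-seq region downstream of the start site had 9.59% at Nrl and 14.6% at Gnat1. A region just past the 3′ end of Nrl had 30.4%. A region from the 3′ part of Gnat1 to beyond the end of the gene had 31.9%.

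Among the 3718 members with at least 30 CpGs, the median share was 41.0%. The 5 with the highest share had 203% to 227%, total levels of 6.27% to 14.8% and 5hmC levels of 13.6% to 30.0%. They lay in or at Myo7a, Gpr62, Fem1a, Hpcal1 and Rab11fip3, and 7.98% to 26.9% of the bases of their bACE-seq regions were inside the member. At Myo7a, whose sequence is shown above, the WGBS level was 9.34% and the single bACE-seq region of 63 CpGs, of which 14.0% was inside, had 21.2%. The 5 lowest had 3.00% to 6.58%, with total levels of 67.6% to 90.7%. The Acnat1 member shown above had 87.3% total modification and 2.62% 5hmC, and repeats made up 96.5% of its bases. Of the others, 2 lay on coding exons, of Dact1 (6.01%) and Zfhx3 (6.58%), and the rest were intergenic.

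The member with the most CpGs, 264, spanned 17441 bp of Ctbp2 with 36.0% total modification and 30.1% 5hmC, a share of 83.7%. Its 9 bACE-seq regions ranged from 8.40% to 40.9%. Members within Camta1 (228 CpGs) and Ankrd33b (227 CpGs) had shares of 63.3% and 55.6%. The bACE-seq regions covered 59.9% of the bases of the Ctbp2 member, 87.7% at Camta1 and 64.7% at Ankrd33b. The 5hmC level of the remaining bases was not analysed here. Whether 5hmC exceeded 5mC over the whole of these members is therefore not shown. The member over the start site of Tmem200b was CpG-dense (13.1 per 100 bp), with 25.2% total modification, 9.35% 5hmC and a share of 37.1%.

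Over the gene body alone, 2374 protein-coding genes had at least 100 member CpGs, with a median share of 32.1% and a middle 80% from 23.8% to 47.7%. The highest values were those of Gpr62 (225%), C1qtnf4 (130%), Pcbp4 (95.0%), Gpx4 (77.8%) and Btbd17 (72.9%). Gpr62 and Pcbp4 share a member, and for Gpr62 only 11.4% of the bACE-seq bases lay inside it. With reciprocal cover, an analysis added after these values were seen, 506 genes had at least 100 CpGs, and the highest included Kif21b, a kinesin (91.2%), Zfp516 (86.8%), Nfic, a nuclear factor I member (84.2%), and Lpcat1, an enzyme of phosphatidylcholine synthesis (81.1%). Kif21b had 23.9% total modification and 21.8% 5hmC. The lowest in the first ranking were Panx2 (13.3%), Stk32b (14.6%), Dnah10 (15.8%), Art3 (15.8%) and Zap70 (16.0%). Art3 was also the lowest with reciprocal cover (13.6%), with 7.26% 5hmC.

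The members were divided into 4 equal groups by share (share groups 1 to 4, from the lowest), which differed in a short sequence word. The letters TAATCC, the core bound by the photoreceptor factors CRX and OTX2, were searched on both strands in the 300 bp around each midpoint. They were present in 10.5%, 15.3%, 18.2% and 20.7% of windows from share group 1 to 4, against 16.2% of all members and 15.2% of all autosomal WGBS regions. Other motifs searched were nearly level between share groups 1 and 4: 19.6% and 20.2% for the nuclear receptor half-site AGGTCA, 24.9% and 24.6% for the MAF half-site TGCTGA, 82.7% and 83.1% for the E-box CANNTG and 8.59% and 7.27% for the GC box GGGCGG. Because interspersed repeats can hold the word, the count was repeated, in an analysis added after seeing the data, over bases outside repeats and for every word of 6 letters found in at least 1% of windows. There TAATCC had the highest ratio of share group 4 to group 1 among 2063 words, 1.96 (15.8% and 8.08%), against a median ratio of 0.969. The next were TAATCT (1.76), GATTAG (1.73) and TTAATC (1.67), which overlap in letters with it. The words with the lowest ratios all held a CpG. Windows had 257 to 264 bases outside repeats on average per group. The groups also differed in composition: from share group 1 to 4 the median GC content of the windows went from 49.0% to 47.3%, the median CpG density of the members from 2.79 to 1.91 per 100 bp and their median length from 279 to 516 bp. The part of these differences in the word ratios was not tested. Among members with 60 to 70% total modification the ratio for TAATCC was 1.54, in place 9 of the 2063 words. A match is a description and no evidence of binding.

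In Tet tcKO, 127983 of the members had a higher WGBS level than in Cre-, which follows from the composition of the lists, and 528 a lower one. Among members with 40 to 50% total modification in Cre-, divided into 4 groups by share, the Tet tcKO level was 64.4% in the group with the lowest share and 71.9% in the group with the highest. Between 80 and 90% the levels were 92.1% and 92.6%. The share and the ranges use the same Cre- values, and the regions were listed for their change, so these levels are given side by side only.

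The WGBS regions that are no members had less total modification. The 26226 regions covered over less than 50% had a level of 45.6%, and the 36026 without any bACE-seq region had 49.0%, against 60.7% in members. Regions enter the bACE-seq list only where the groups differed, so the 5hmC level of regions without cover was not analysed here.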

How the data were processed

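Whole retinas at P21 were profiled in 3 Cre- and 3 Tet tcKO libraries per assay. Per the labels, the authors' tools included Bismark (0.18.2) and MethylDackel (0.6.1), with mm10 as the genome. The authors called regions with DSS, which smooths levels along the genome, separately for each assay. The deposited levels are the mean fraction of modified cytosine of a region per group, with 1 value for all replicates, and were multiplied to percent. The deposited difference and area statistic, which hold the authors' own comparison, were not used.

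The share was computed with pandas (2.3.3), and the interval code was tested on 900 simulated regions with 0 mismatches. Region ends fell on CpGs of GRCm38 in 100% of regions. Genes came from GENCODE M21, and repeats from the masking of the reference. Groups of members were summarized with CpG weights, and genes by their members within 5 kb. Named regions had at least 30 CpGs and were the 5 highest, 5 lowest and 5 with the most CpGs, with 1 chromosome left out. Named genes were the 4 with the most member CpGs per list, and the 5 highest and lowest with at least 100 CpGs. The members and lists were chosen with earlier results of these data known. A gene of the rod list and some regions and genes these rules name are not reported here. Alternatives changed the cover, weights, CpG minimum, subtracted background, chromosomes, promoter window, flank and density.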

Additional observations from a re-analysis of the deposited data

How the results depend on the processing

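No replicate spread exists for these values, so an alternative was taken as moved when it changed a value by over 10%. Of 78 alternative values of the 6 main results, 61 stayed within 10% and 17 moved. None of the differences changed sign, and the shares themselves are positive ratios, for which the sign says nothing. The CpG-weighted share was lowest, 28.3%, with 2 points subtracted from the 5hmC level, a stand-in for incomplete deamination. The paper's text puts failed conversion in bACE-seq at about 2% of unmodified cytosines. The rate of failed deamination of 5mC was not examined here. The share was highest, 36.4%, where the groups had to differ by at least 0.1 in both lists, which was added after seeing the data. The median share was 26.1% and 33.6% under the same alternatives. The promoter minus intergenic difference was 9.97 points where 1 covered base was enough, 4.95 with 90% cover, 9.03 with reciprocal cover and 7.01 with a 5 kb promoter window. The gene body minus intergenic difference was 3.69 points with 90% cover. The densest minus sparsest difference was -15.0 points with 90% cover, -20.6 with reciprocal cover, -21.1 with at least 10 CpGs, -11.3 with the added minimum difference and -9.74 with density taken from 1 kb of the reference. The rod minus cone difference was 24.5 points with 1 covered base, 8.15 with 90% cover and 6.24 with reciprocal cover. The causes were not tested. Over 91 alternative values for gene lists, 21 moved. Most of these results are median shares, for which the sign says nothing, and neither of the differences from all genes changed sign. The regulators of photoreceptor fate lay 14.5 to 21.0 points above all genes, and microglia genes lay below them by between -12.2 and -0.267 points, the latter with at least 10 CpGs. The stricter mean Wald statistic was not run, because it needs the authors' own comparison. No paired analysis was possible because the lists hold 1 mean per group. Depth was not analysed here, and low levels are the least certain shares, since a small background weighs most there.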
